A study of Homo sapiens with 6 samples.

Results

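The genes described here are AXL, MET and other receptor kinases. They are 10 of the 54259 gene symbols in the deposited table, taken by name, and comprise 9 receptor tyrosine kinases outside the ERBB family (AXL, TYRO3, MET, FGFR1, FGFR4, INSR, IGF1R, EPHA2 and DDR1) and GAS6, a ligand. RNA-Sequence was performed on MDA-MB-231 cells, an established human breast cancer line of mesenchymal-like, triple-negative type, carrying either a hairpin RNA against the transcription factor brachyury (MDA-MB-231 shBry, 3 libraries) or a control hairpin (MDA-MB-231 shNC, 3 libraries). All 6 libraries come from this 1 line. The sources used here do not give the hairpin sequence, the culture time, or whether the cells were clones or pools, and no label says that the libraries are separate cultures, so that p-values measure only the spread between these libraries.
The libraries held between 19319411 and 22985371 counts, and the first principal component of log2 CPM (counts scaled to the library total) took 79.1% of the variance and separated shBry from shNC. Brachyury, listed under its older symbol T, had 0 counts in all 6 libraries, which leaves the labels unchecked on the targeted gene. A count of 0 allows up to 0.155 CPM before TMM scaling (3 counts, counting error only). The study's deposited design text calls the RNA pericardial. Of 6 markers of the MDA-MB-231 type, VIM and CD44 included, all were detected. By the rule given below, 2 of these 6 were called lower in shBry (33.3%, against 32.4% of all genes tested). They were CAV1 (189 to 87.6 CPM) and S100A4 (16.05 to 8.6 CPM), while VIM (log2 fold change -0.27) and CD44 (0.34) were not called. The 5 cardiac muscle markers summed to at most 0.183 CPM and 6 leukocyte markers to at most 0.275 CPM in any library. Of 4 mesothelial markers, UPK3B (highest count 5) and WT1 (highest count 7) were too scarce to be tested. MSLN was at 32.1 CPM in shNC and 45.9 CPM in shBry and was not called. CALB2 was at 11.1 CPM in shNC replicate 3 and below 2 CPM in the other libraries. CALB2 was called lower in shBry (adjusted p 0.00727 by edgeR), with 30, 29 and 222 counts in shNC replicates 1, 2 and 3. Whether that call holds without shNC replicate 3 was not tested. The 8 luminal epithelial markers summed to 1339 to 1457 CPM in shNC and to 560 to 700 CPM in shBry, nearly all from KRT8 and KRT18. Of these 8, KRT8 (891 to 239 CPM) and KRT19 (1.46 to 0.415 CPM) were called lower and EPCAM higher (1.55 to 4.28 CPM). KRT19 passed the filter on low counts only through shNC, where it was high. The 3 endothelial markers summed to 1 to 1.23 CPM in shNC and 0.431 to 0.621 CPM in shBry. Their part in the results below was not tested.

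Receptor tyrosine kinases cross the cell membrane once, bind a ligand outside the cell, pair up and phosphorylate each other inside, which recruits adaptor proteins and starts the RAS and PI3K cascades. AXL and TYRO3 belong to the TAM family and are activated by GAS6, a vitamin K-dependent protein that bridges them to phosphatidylserine. AXL and MET, the receptor of hepatocyte growth factor, are known in breast cancer cells for migration, invasion and resistance to drugs. EPHA2 binds membrane-bound ephrins on neighboring cells, FGFR1 and FGFR4 bind fibroblast growth factors, INSR and IGF1R bind insulin and insulin-like growth factors and can form hybrids, and DDR1 binds collagen.

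Of the 10 genes, 9 passed the filter on low counts and were tested. Differential expression was called for 3, EPHA2 higher and GAS6 and IGF1R lower in shBry. A gene was called at a Benjamini-Hochberg adjusted p below 0.05 in edgeR's quasi-likelihood fit over 15277 genes and a fold change above 1.5. That rule called 32.4% of all genes tested, 17.1% higher and 15.2% lower, so 3 of 9 is a share near the background. Without the fold limit 5 of the 9 passed, AXL and TYRO3 added, against 53.3% of all genes. The values of the groups did not overlap for 7 of the 9, against 59.5% of all genes. No tested gene of the 10 changed by a factor of 2, and with a fold change limit of 2 the count was 0.

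**Figure D1:**
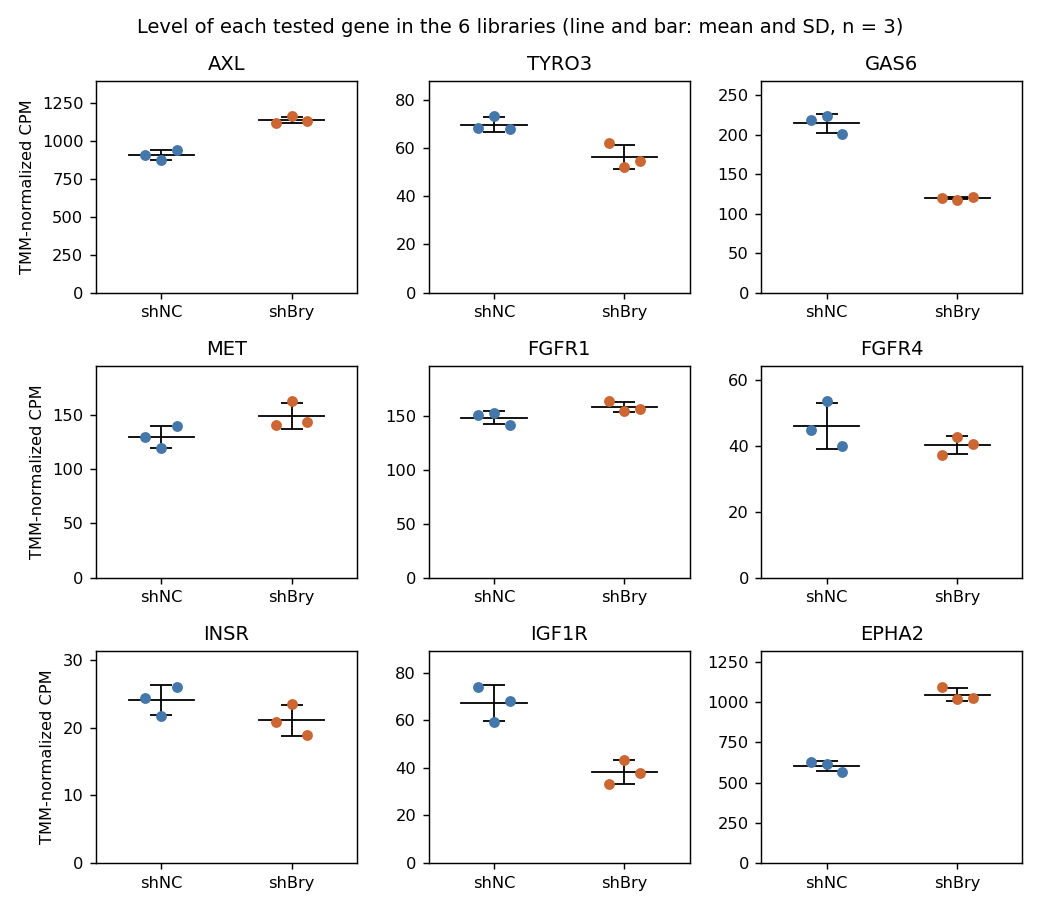
TMM-normalized CPM (vertical axes, from 0) of the 9 tested genes in each of the 3 shNC (blue) and 3 shBry (orange) libraries, with the mean and SD. The points of EPHA2 lie near 603 in shNC and 1048 in shBry, those of GAS6 near 214 and 119, and those of FGFR4 and INSR overlap between the groups.

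The TAM receptor AXL, on chromosome 19 of GRCh38 from 41219203 to 41261766, had the most counts of the 10 genes. Its level was 907, 876 and 938 CPM, scaled by edgeR's TMM method, in shNC replicates 1, 2 and 3. In shBry replicates 1, 2 and 3 it was 1122, 1163 and 1132 CPM. Every shBry library lay above every shNC library, and the gap between the groups was wider than the range within either. The means were 907 ± 31.1 and 1139 ± 21.2 CPM (SD, n = 3), 1.26-fold higher in shBry, with a log2 fold change of 0.33 and a 95% interval from 0.17 to 0.49 (adjusted p 0.00172 by edgeR). AXL therefore passed the test on p and stayed under the fold limit.
TYRO3, the second TAM receptor, on chromosome 15 from 41557675 to 41583586, moved the other way. It had 68.4, 73.2 and 67.8 CPM in the shNC libraries and 62, 52.2 and 54.8 CPM in the shBry libraries. All 3 shBry values were lower, shBry replicate 1 least so. The means were 69.8 ± 2.98 and 56.3 ± 5.07 CPM (SD, n = 3), 1.24-fold lower in shBry, with a log2 fold change of -0.31 (interval -0.51 to -0.11, adjusted p 0.0108 by edgeR), again under the fold limit. The pseudogene TYRO3P and other genes share 4.65% of the stretches of 50 bases in TYRO3 transcripts. MERTK, the third TAM receptor, was scarce at 5.65 ± 0.61 and 7.44 ± 1.64 CPM and did not pass the test (log2 fold change 0.40, adjusted p 0.089 by edgeR).
The ligand GAS6, on chromosome 13 from 113820549 to 113864067, was called lower in shBry. In shNC it was at 219, 223 and 201 CPM, and in shBry at 120, 118 and 121 CPM. The 3 shBry values lay within 3 CPM of each other and far below the lowest shNC value. GAS6 fell 1.79-fold, from 214 ± 12 to 119 ± 1.55 CPM (SD, n = 3), with a log2 fold change of -0.84, interval -1.01 to -0.68 and adjusted p 6.94e-07 by edgeR. The antisense gene GAS6-AS1 overlaps 7.01% of its exon bases but had at most 8 counts in any library, against at least 2232 for GAS6. PROS1, which encodes protein S, the other TAM ligand, was at 33.5 ± 4.99 and 25.2 ± 2.56 CPM, with a log2 fold change of -0.41 (adjusted p 0.0139 by edgeR) under the fold limit.

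EPHA2, on chromosome 1 from 16124337 to 16156087, was the one of the 10 genes called higher. The shNC libraries gave 627, 614 and 566 CPM, and the shBry libraries 1098, 1020 and 1027 CPM. No shBry value came near the shNC range. EPHA2 rose 1.74-fold, from 603 ± 32.3 to 1048 ± 43 CPM (SD, n = 3), with a log2 fold change of 0.80, interval 0.63 to 0.96 and adjusted p 1.18e-06 by edgeR.
The growth factor receptor IGF1R, on chromosome 15 from 98648539 to 98964530, was the other of the 10 genes called lower. It had 74.2, 59.3 and 68.1 CPM in shNC against 33.2, 43.2 and 38 CPM in shBry. The replicates spread more than those of EPHA2 or GAS6, with an SD of 11.1% of the mean in shNC and 13.1% in shBry, but the groups stayed apart. IGF1R fell 1.76-fold, from 67.2 ± 7.49 to 38.1 ± 5 CPM (SD, n = 3), with a log2 fold change of -0.82, interval -1.06 to -0.57 and adjusted p 3.6e-05 by edgeR. The end of that interval nearest to 0 lies just short of the fold limit.
INSR, the insulin receptor gene and closest relative of IGF1R, on chromosome 19 from 7112255 to 7294034, was the scarcest of the 9. It had 24.4, 21.7 and 26.1 CPM in shNC and 20.9, 23.5 and 19 CPM in shBry, so the groups overlapped. The log2 fold change was -0.19, interval -0.45 to 0.08 (adjusted p 0.214 by edgeR), which leaves room for no change and for a fall of up to 0.45 on the log2 scale.

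The upstream sequences of the 3 differentially expressed genes are shown because they are the regions just before the starts of the transcripts whose counts differed, although these data measure RNA and not binding or activity of the promoters. Each is the 250 bases before the RefSeq start on GRCh38.p14, read 5′ to 3′ on the gene's strand. Capitals mark the GC box GGGCGG, or CCGCCC where it lies on the other strand. GAS6 comes from chr13:113864077-113864326 on the minus strand, IGF1R from chr15:98648289-98648538 on the plus strand and EPHA2 from chr1:16156070-16156319 on the minus strand.
GAS6: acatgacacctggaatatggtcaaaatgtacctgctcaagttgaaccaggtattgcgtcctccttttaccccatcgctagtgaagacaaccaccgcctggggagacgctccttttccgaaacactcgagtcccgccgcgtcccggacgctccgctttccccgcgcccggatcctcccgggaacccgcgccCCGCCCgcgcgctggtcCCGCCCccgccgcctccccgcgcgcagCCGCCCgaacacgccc
IGF1R: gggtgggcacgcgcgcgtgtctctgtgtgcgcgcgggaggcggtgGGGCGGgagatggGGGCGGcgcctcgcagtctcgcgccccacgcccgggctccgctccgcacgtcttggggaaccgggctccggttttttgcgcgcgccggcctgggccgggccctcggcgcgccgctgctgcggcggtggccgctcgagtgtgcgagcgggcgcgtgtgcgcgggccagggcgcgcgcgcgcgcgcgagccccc
EPHA2: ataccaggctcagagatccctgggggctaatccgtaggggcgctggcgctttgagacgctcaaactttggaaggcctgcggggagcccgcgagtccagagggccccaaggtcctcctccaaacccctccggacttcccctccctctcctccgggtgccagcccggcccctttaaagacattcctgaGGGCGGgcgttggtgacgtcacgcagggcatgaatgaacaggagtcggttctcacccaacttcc
The GC box occurs 3 times in the GAS6 window, 2 times in that of IGF1R and 1 time in that of EPHA2. RefSeq windows were at hand for 9 of the 10 genes, 19 windows in all because several genes have more than 1 start. DDR1 held the most windows, some of them overlapping, so counts over the 19 windows weigh DDR1 more than the other genes. The GC box was in 12 of the 19 windows, at least 1 for each of the 9 genes, against 42.6% of 35116 windows of all genes. TCACAC, the core of the sequence that T-box factors such as brachyury bind, was in 0 of the 19 windows on either strand, against 9.9% of all windows. The AP-1 sequence TGANTCA was in 2 of the 19, 1 of TYRO3 and 1 of DDR1, against 6.57% of all. Both fallen genes, GAS6 and IGF1R, and the risen gene EPHA2 thus hold the GC box, and none of the 3 holds the other 2 motifs in these 250 bases.

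MET, on chromosome 7 from 116672390 to 116798386, was at 129, 120 and 139 CPM in shNC and at 141, 162 and 144 CPM in shBry. The groups did not overlap, but the highest shNC value and the lowest shBry value were 139.1 and 140.6 CPM. The means were 129 ± 9.72 and 149 ± 11.6 CPM (SD, n = 3). The log2 fold change was 0.20 (interval 0.01 to 0.39, adjusted p 0.0658 by edgeR), which did not pass the test. When single libraries were left out, the log2 fold change lay between 0.12 and 0.24 and the adjusted p between 0.051 and 0.325.
FGFR1, on chromosome 8 from 38400215 to 38468834, had 151, 153 and 142 CPM in shNC and 164, 155 and 157 CPM in shBry. The highest shNC value, 153.2, and the lowest shBry value, 154.8, nearly met. Its log2 fold change was 0.09 (interval -0.07 to 0.26, adjusted p 0.328 by edgeR), so a change as large as the fold limit lies outside the interval.
FGFR4, on chromosome 5 from 177086886 to 177098144, had 44.9, 53.5 and 39.9 CPM in shNC and 37.3, 42.8 and 40.7 CPM in shBry. The groups overlapped, and the shNC libraries differed most among themselves, with an SD of 15% of the mean. Its log2 fold change was -0.19 (interval -0.44 to 0.05, adjusted p 0.165 by edgeR). Without shNC replicate 3 it was -0.31 (adjusted p 0.0312 by edgeR), and without shNC replicate 2 it was -0.09, so this value rests on single control libraries.

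DDR1, the collagen receptor gene on chromosome 6 from 30876421 to 30900156, had 0 counts in every one of the 6 libraries and was not tested. On chromosome 6 between GNL1 and RING1, from 30541377 to 33212722, 86 of the 118 coding genes in the table were listed at 0 (72.9%), against 19.6% of coding genes over all chromosomes. Among the nearest neighbors of DDR1, TUBB, FLOT1 and GTF2H4, which encode a tubulin, flotillin 1 and a subunit of a general transcription factor, also had 0 counts, while VARS2 had 179 counts over all libraries. The level of DDR1 can therefore not be read from these counts. DDR2, the other collagen receptor of the family, rose from 4 ± 0.492 to 9.53 ± 1.06 CPM (SD, n = 3), with log2 fold change 1.25 (adjusted p 2.58e-05 by edgeR).

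To compare levels between genes, CPM were divided by the length in kb of the longest coding transcript. In shNC the order was AXL (192 CPM per kb), EPHA2 (152), GAS6 (86), FGFR1 (24.6), MET (19.5), FGFR4 (14.8), TYRO3 (8.51), IGF1R (5.49) and INSR (2.69 CPM per kb). No pair of neighbors in this order overlapped over the 3 shNC libraries. The closest were MET, at 18 or more, and FGFR4, at 17.1 or less CPM per kb. In shBry, EPHA2 stood above AXL, at 257 to 277 against 237 to 245 CPM per kb, and the other places were kept. With the union of all exons as the length, FGFR1 fell to 10.7 and stood below MET at 18.4 CPM per kb in shNC. The place of EPHA2 against AXL in each group did not depend on that choice, with 145 against 176 in shNC and 252 against 221 CPM per kb of exon union in shBry.
Within-library ratios, which do not depend on how libraries are scaled, were compared for 5 pairs. AXL over GAS6 changed most, from a log2 ratio per kb of 1.16 ± 0.13 in shNC to 2.32 ± 0.04 in shBry (SD, n = 3), a difference of 1.17. AXL over TYRO3 differed by 0.64 and INSR over IGF1R by 0.63, from -1.03 ± 0.11 to -0.40 ± 0.17 (SD, n = 3). In these 3 pairs and in FGFR1 over FGFR4, with a difference of 0.28, all 3 shBry ratios lay above all 3 shNC ratios. The exact two-sided permutation test gave p = 0.1 for each of these 4, the smallest that 3 against 3 libraries can give, and 0.125 after Benjamini-Hochberg adjustment over the 5 pairs. MET over AXL overlapped between the groups (difference -0.13, exact permutation p = 0.2, adjusted 0.2).

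**Figure D2:**
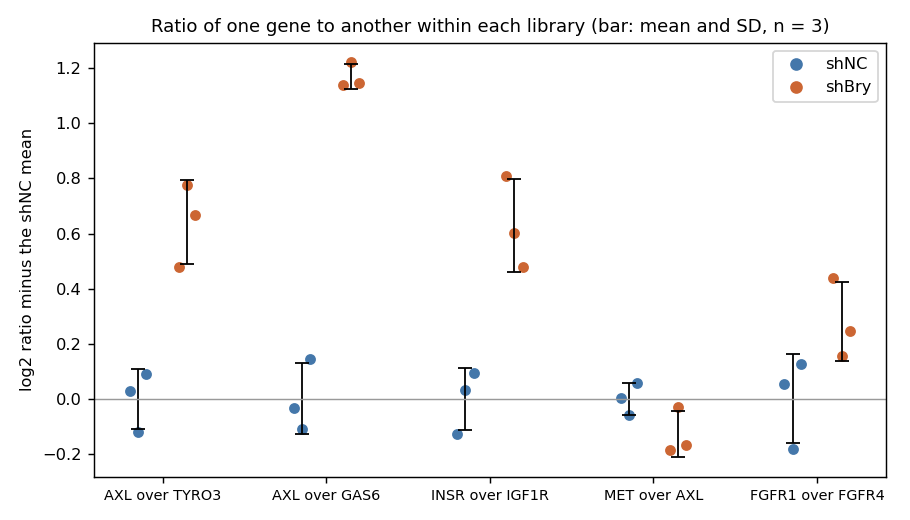
Log2 ratio of one gene to another within each library, less the shNC mean of that pair (vertical axis), with the mean and SD of 3 shNC (blue) and 3 shBry (orange) libraries. AXL over GAS6 stands 1.17 above the shNC mean in shBry, and MET over AXL shows overlapping groups.

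The profile most like that of AXL over the 6 libraries, among 9412 other genes averaging 10 CPM or more, was that of FAM168B, with a root mean square difference of 0.014 in centered log2(CPM + 0.5). MBP (0.0244) and CD44 (0.0248) followed. For MET the nearest were HIPK1 (0.0238), UBXN2A (0.0305) and SERTAD2 (0.037), where the median over all these genes was 0.25. With 2 groups of libraries this measure mostly ranks genes by their fold change.

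The other receptors of the same class were examined from a list of 54 receptor tyrosine kinases outside the ERBB family, 9 of them described above. Of the 54, 33 passed the filter on low counts and 14 (42.4%) were called, 5 higher and 9 lower in shBry, against 32.4% of all genes tested. The median log2 fold change was 0.07, against 0.03 over all genes. Apart from the receptors described above, 25 were tested and 12 were called, most of them scarce.
The 4 further receptors called higher were MST1R, DDR2, LTK and FLT4. MST1R, which encodes RON, the sister receptor of MET, was at 17.8, 19.9 and 16.3 CPM in shNC and 34.2, 34.9 and 33 CPM in shBry. Its groups stood well apart, with a log2 fold change of 0.92, SE 0.11 and adjusted p 1.03e-05 by edgeR, while MET itself did not pass the test. LTK, a relative of ALK, rose from 15.3 ± 1.68 to 28.1 ± 1.78 CPM, with log2 fold change 0.87. FLT4, a VEGF receptor, had 5 counts over the shNC libraries and 40 over the shBry libraries, a ratio of 7.76 (exact 95% counting interval 3.06 to 25.2). That interval covers counting error only, not the spread between libraries. FLT4 passed the filter on low counts only through shBry, where it was high.
The 8 further receptors called lower were FGFR2, FGFR3, EPHA6, EPHB3, KDR, ROR1, ROR2 and LMTK3. Their log2 fold changes were -0.72 for FGFR2, -0.83 for FGFR3, -1.92 for EPHA6, -1.03 for EPHB3, -1.02 for KDR, -0.61 for ROR1, -1.40 for ROR2 and -0.87 for LMTK3. EPHA6 and ROR2 passed the filter on low counts only through shNC, where they were high. Among the 28 receptors with at least 10 counts in every library, which leaves out EPHA6, ROR2 and FLT4, 11 were called, 4 higher and 7 lower. With that filter 4432 of 13859 genes in all were called. ROR1, a Wnt5a-binding receptor, was the most abundant of the 8 further receptors called lower. It was at 14.1 ± 1.71 CPM in shNC and 9.2 ± 1.04 in shBry, and the others of the 8 had at most 7.04 CPM on average. Both scarce FGF receptors were thus called lower, while FGFR1 and FGFR4 did not pass the test. Calls of 3 of the 8 rested on single libraries. KDR lost its call without shNC replicate 1 (adjusted p 0.0619 by edgeR). ROR1 came under the fold limit without shNC replicate 3 or shBry replicate 3 (log2 fold change -0.53 in both). LMTK3 lost its call without shNC replicate 2 or 3 or shBry replicate 1 or 2 (adjusted p 0.0527 to 0.0999 by edgeR).
Of the 14 EPH receptors, 6 were tested and 3 were called (50%, against 32.4% of all genes). EPHA2 was the only one called higher. EPHA6 and EPHB3 were called lower, EPHA4, EPHB2 and EPHB4 did not pass the test (log2 fold changes 0.05, 0.15 and -0.07), and 8 had too few counts to be tested.

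**Figure D3:**
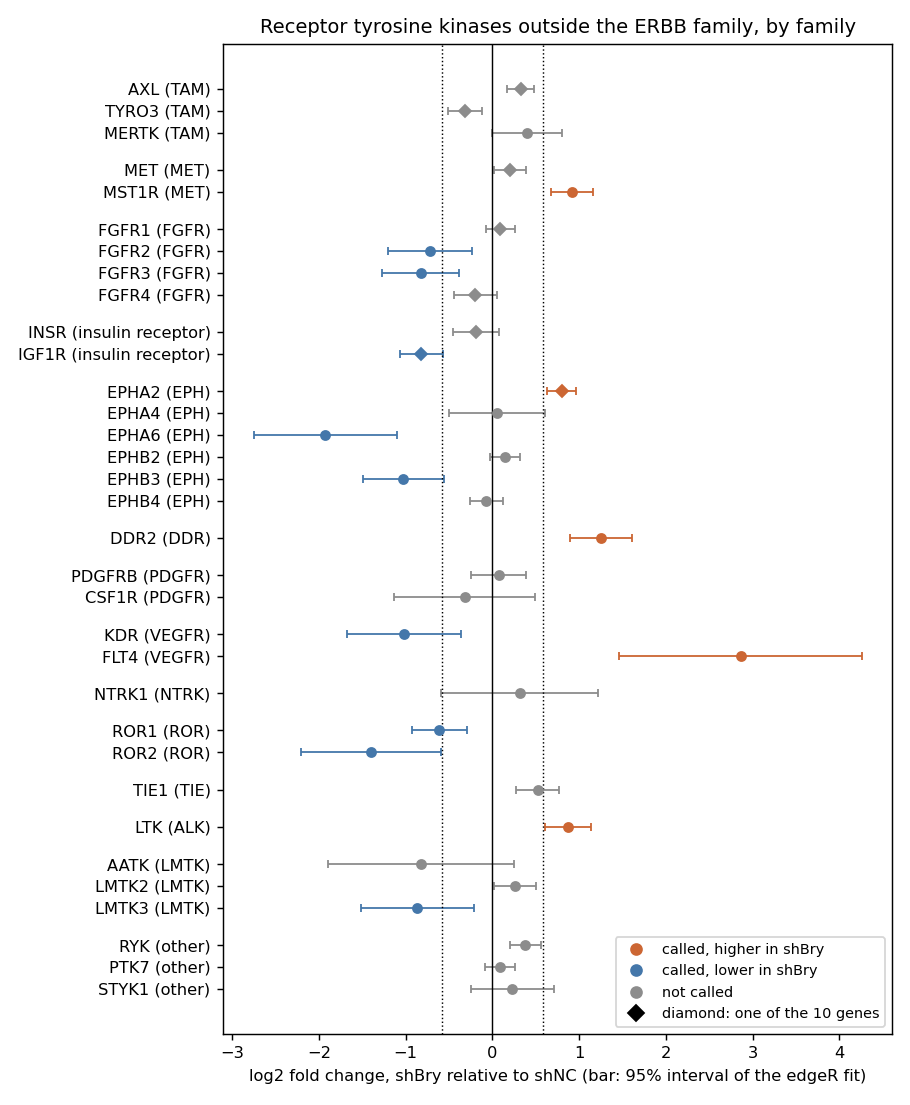
Log2 fold change of shBry relative to shNC (horizontal axis) with the 95% interval of the edgeR fit for the 33 tested receptor tyrosine kinases outside the ERBB family, by family. Orange marks the 5 called higher, blue the 9 called lower, gray those not called, diamonds the receptors described one by one, and dotted lines the 1.5-fold limit.

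Ligands, binding proteins, co-receptors, adaptors and shedding enzymes of these receptors were read from 5 lists. Without GAS6 they held 89 genes, of which 66 were tested and 19 (28.8%) were called, 10 higher and 9 lower, against 32.4% of all genes tested. Their median log2 fold change was -0.08. Among the 63 with at least 10 counts in every library, which leaves out FGF21, FGFBP1 and GRB7, 16 were called, 9 higher and 7 lower. That filter called 4432 of 13859 genes in all.
Among 30 genes listed as ligands, GAS6 included, 16 were tested and 5 called (31.25%, against 32.4% of all genes), 2 higher and 3 lower. FGF genes were listed by family name, FGF11, FGF12 and FGF13 included, whose products are not secreted ligands. FGF11 was among the 3 called lower (log2 fold change -0.71), and 79.7% of its exon bases lie in exons of other genes. HGF, the ligand of MET, INS and IGF1 were listed at 0 counts in all libraries, and IGF2 had 1 count. The MST1R ligand MST1 was tested and did not pass, with a log2 fold change of -0.09. FGF1, which can activate all FGF receptors, was at 11, 10.1 and 10.9 CPM in shNC and 5.44, 3.92 and 4.43 CPM in shBry. That is a clear separation, with a log2 fold change of -1.22, SE 0.16 and adjusted p 2.48e-05 by edgeR. FGF21, a stress-induced FGF hormone, had 1 count over the shNC libraries and 104 over the shBry libraries, a ratio of 101 (exact 95% counting interval 17.7 to 4025). Here too the interval leaves out the spread between libraries. FGF21 passed the filter on low counts only through shBry, so its place among the 2 ligands called higher is no separate finding. Its co-receptor gene KLB had 0 counts in every library. Of 8 ephrin genes, EFNA1, a ligand of EPHA2, was the one called (12.5%, against 32.4% of all genes), with a log2 fold change of 0.60. The median log2 fold change of the 8 was -0.27. Without the fold limit 5 of the 8 passed, against 53.3% of all genes. Beside EFNA1 these were EFNB2 higher (log2 fold change 0.38) and EFNA4 (-0.38), EFNA5 (-0.48) and EFNB3 (-0.30) lower.
Among 9 genes of IGF binding, 6 were tested and IGF2R was the one called (16.7%, against 32.4% of all genes). IGF2R, which takes up IGF2 and sorts lysosomal enzymes and is no tyrosine kinase, was at 189, 157 and 179 CPM in shNC and 323, 390 and 355 CPM in shBry. It rose 2.03-fold with no overlap (adjusted p 6.66e-07 by edgeR), opposite in direction to IGF1R. IGFBP4 and IGFBP7, which encode IGF-binding proteins, had log2 fold changes of -0.40 and -0.56, under the fold limit. IGFBP7 passed that limit without shNC replicate 1 (-0.60), shNC replicate 3 (-0.64) or shBry replicate 1 (-0.60).
Of 15 genes of co-receptors and of HGF or FGF processing, 11 were tested, 4 were called higher and 1 lower (45.5%, against 32.4% of all genes). The 1 called lower, FGFBP1, had 27, 25 and 10 counts in shNC and 0, 5 and 0 in shBry. It passed the filter on low counts only through shNC, where it was high, so its call is no separate finding. NRP1, a co-receptor of several growth factors, had the smallest adjusted p of all 5 lists. It had 56.5, 51.3 and 55.3 CPM in shNC and 218, 208 and 205 CPM in shBry, a 3.87-fold rise (log2 fold change 1.95, SE 0.08, adjusted p 2.27e-10 by edgeR). SDC4, a heparan sulfate proteoglycan that holds FGFs at the cell surface, rose 2.02-fold to 503 ± 35.9 CPM in shBry. ST14, a protease that can activate HGF, rose from 1.5 ± 0.311 to 6.15 ± 0.937 CPM, 4.06-fold.
Among 28 adaptor and ubiquitin ligase genes, 26 were tested, 2 were called higher and 5 lower (26.9%, against 32.4% of all genes). GRB7, among these 5, had 52, 50 and 49 counts in shNC and 12, 9 and 25 in shBry. It passed the filter on low counts only through shNC, where it was high. GRB10, an adaptor that dampens signals of INSR and IGF1R, rose from 37.8 ± 1.18 to 104 ± 7.13 CPM, 2.74-fold (adjusted p 9.67e-09 by edgeR). SH2B1, an adaptor that strengthens insulin signals, fell from 56.4 ± 4.85 to 16.6 ± 0.997 CPM (log2 fold change -1.76, adjusted p 1.02e-08 by edgeR). SHC1, an adaptor of most of these receptors, fell from 499 ± 11 to 301 ± 18 CPM (log2 fold change -0.73), and 15.2% of its exon bases lie in exons of other genes. IRS1, a substrate through which INSR and IGF1R reach PI3K, was also called lower (log2 fold change -0.78, adjusted p 1.25e-04 by edgeR). IRS2, of the same family, was at 22.2 CPM in shNC and 26.3 CPM in shBry. It did not pass the test (log2 fold change 0.25, adjusted p 0.131 by edgeR).
Of 8 genes of receptor shedding, all were tested and 2 were called (25%, against 32.4% of all genes). ADAM17, a protease that cleaves receptors and ligands from the cell surface, rose from 50.7 ± 6.4 to 80.3 ± 2.81 CPM (log2 fold change 0.66), with 13.6% of its exon bases in exons of other genes. TIMP3, an inhibitor of ADAM17, fell from 6.37 ± 0.626 to 1.93 ± 0.227 CPM (log2 fold change -1.72, adjusted p 5.53e-06 by edgeR). ADAM15 stayed under the fold limit at a log2 fold change of 0.43.

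**Figure D4:**
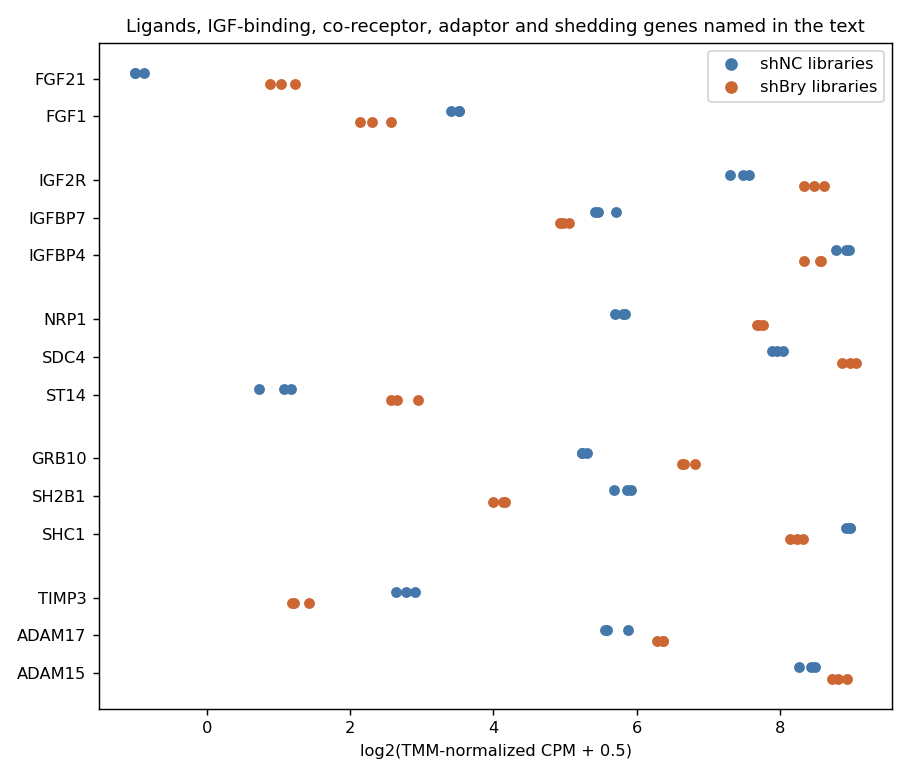
Log2(TMM-normalized CPM + 0.5) (horizontal axis) of the named ligand, IGF-binding, co-receptor, adaptor and shedding genes in each shNC (blue) and shBry (orange) library. The groups stand apart for each gene drawn, with FGF21 at or near 0 CPM in shNC, and NRP1 and ST14 far to the right in shBry.

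**Figure D5:**
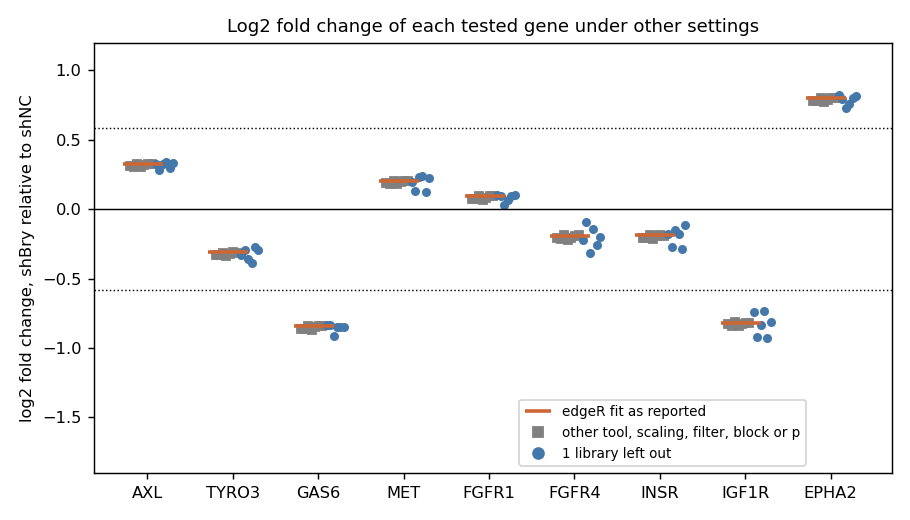
Log2 fold change of shBry relative to shNC (vertical axis) for the 9 tested genes as reported (orange bar), with another tool, scaling, filter, block or unadjusted p (gray squares) and with 1 library left out (blue circles). EPHA2 lies above, and GAS6 and IGF1R lie below, the dotted 1.5-fold lines in all of these fits, and the other 6 genes lie between the lines.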

How the data were processed

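Total RNA of 3 MDA-MB-231 shBry and 3 MDA-MB-231 shNC libraries was sequenced by a company, per the study's methods, and the authors deposited raw read counts per gene symbol without normalization. The submitters' processing notes name HISAT2 2.0.4, HTSeq and GRCh38. The annotation and strand setting are not given in the sources used here. Samples were grouped by their labels. Libraries held 19319411 to 22985371 counts, and a count of 0 allows up to 0.155 CPM before TMM scaling (3 counts).

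Low-count genes were removed by filterByExpr (minimum count 10), and edgeR 4.0.16 (R 4.3.3) was run with TMM scaling and its quasi-likelihood fit, with Benjamini-Hochberg adjustment over 15277 genes. Intervals are 95% intervals of the fit. The study's methods give p below 0.05 and a fold change above 1.5 but no test. Simulated counts for this comparison were run on 15113 genes. Of 100 genes changed by 1 and 99 changed by 2 on the log2 scale, 91% and 100% were recovered, with 5 false calls. Every gene had the same spread between libraries, and rises and falls were balanced. Far fewer genes were changed than the 32.4% called in the data. Changes below 1 on the log2 scale, such as those of EPHA2, GAS6 and IGF1R, were not simulated. Libraries of a group differed by more than sampling noise (chi-square per degree of freedom 4.94 to 16.7). The genes and lists were chosen with earlier results of these data known, and the lists were written from general knowledge. Named are the 10 genes, each called receptor kinase, the 3 smallest adjusted p of each other list and the 3 profiles nearest to AXL and MET. Further receptors, ligands, co-receptors, adaptors and markers were named after their values were seen. Locations and lengths come from GENCODE 29 on GRCh38, matched by symbol (the symbols of all lists matched), and upstream sequences from RefSeq on GRCh38.p14. Ratios used counts + 0.5 per kb. Alternatives were no TMM, DESeq2 1.42.0, limma-voom (limma 3.58.1), other filters, other limits, a replicate block and each library left out. Lengths from the union of exons were added after the data were seen.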

Additional observations from a re-analysis of the deposited data

How the results depend on the processing

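For the 9 tested genes, all 117 recomputed log2 fold changes kept direction and call, over library sizes without TMM, DESeq2, limma-voom, both other filters, unadjusted p, the replicate block and each library left out. The fold change limit was the one setting that moved a count of calls by over 1.5 times. With a limit of 2, 0 of the 9 genes, 6 receptor tyrosine kinases, 12 pathway genes and 2297 genes in all were called. Without a limit these were 5, 18, 39 and 8139. With each library left out in turn, 3 of the 9 genes were called each time, with 12 to 13 receptor tyrosine kinases, 19 to 20 pathway genes and 4587 to 5025 genes in all. Of the 5 ratios, each kept its direction without the added count and with each library left out. Of 412 values of the other named genes, 10 changed call, those of KDR, LMTK3, ROR1 and IGFBP7 given above, and 0 reversed. Replicate numbers did not pair the libraries (correlations of deviations 0.246, -0.129 and -0.054 for numbers 1, 2 and 3). The fit with the replicate block called the same number of the 9 genes, 3, and 14 receptor tyrosine kinases, 19 pathway genes and 4914 genes in all. Counts behind the 9 genes lay between 388 and 27586 per library, while several of the other named receptors and ligands had under 10 counts in some libraries.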
